A study of Mus musculus with 2 samples.

Results

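The miR-183/96/182 cluster is a group of 3 miRNA hairpins, Mir183, Mir96 and Mir182, that lie close together on 1 strand of mouse chromosome 6. They are 3 of 1174 mouse hairpins in GENCODE vM21 (genome build GRCm38), and a sequenced tag was counted for them when it matched a hairpin without mismatch. Small RNA was sequenced from J1 cells, a mouse embryonic stem (ES) cell line that here was adapted to gelatin without feeder cells and grown in Knockout serum replacement with LIF, the cytokine that maintains mouse ES cells. The cells received 1 mM AICAR, a compound that enters cells and activates the kinase AMPK, or an equal volume of its solvent DMSO (0 mM AICAR) for 24 h. Each condition is 1 library, so differences have no replicate check. The control sample is titled J1_U and carries the treatment label DMSO, under which it is used here.

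Hairpins of this kind are cut from a longer transcript by Drosha and then by Dicer, which leaves a duplex of a 5p and a 3p arm, and usually 1 arm is kept by an Argonaute protein. Bases 2 to 8 of the kept arm, the seed, largely decide which mRNAs it pairs with, so a 5′ end that moves by 1 base gives another seed. The cluster is known for its high levels in the hair cells of the ear and the photoreceptors of the eye, where it is needed for normal development, and it is also made in ES cells and epithelia.

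All 3 hairpins lie on the minus strand, in the order Mir183, Mir96, Mir182 in the direction of transcription. Mir183 (ENSMUSG00000065619.2) is at chr6:30169668-30169737, Mir96 (ENSMUSG00000065586.1) at chr6:30169446-30169551 and Mir182 (ENSMUSG00000076361.1) at chr6:30165918-30165992. Gaps of 116 and 3453 bases separate them, and the whole group spans 3820 bases in which no other gene is annotated, so they are intergenic. The nearest annotated genes, both on the plus strand, are Nrf1 (protein coding), 12459 bases away at lower coordinates, and Rncr4 (a long noncoding RNA), 3155 bases away at higher coordinates.

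The 5p arms carry most of the reads. Their mature sequences, from RefSeq on build GRCm38.p6, are shown with the seed in capitals because the members are close relatives in this stretch:
miR-183-5p: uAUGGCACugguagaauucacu
miR-96-5p: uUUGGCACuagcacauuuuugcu
miR-182-5p: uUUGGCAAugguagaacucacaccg
They lie at chr6:30169711-30169732, chr6:30169506-30169528 and chr6:30165962-30165986. miR-96-5p and miR-182-5p share all 6 of bases 2 to 7 (UUGGCA) and differ at base 8, whereas miR-183-5p shares 5 of these 6 bases with each of them. Behind the seed the likeness runs the other way. Over the first 20 bases miR-183-5p matches miR-182-5p at 17 and miR-96-5p at 13 positions, and miR-96-5p matches miR-182-5p at 12. Among the 1145 miRNA arms with reads, no arm outside the cluster had bases 2 to 7 of any member. For each of the 3 5p arms the most-read tag was identical to the RefSeq sequence.

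Where a pair of values is given without further words, DMSO comes before AICAR. Clean reads numbered 18870345 and 21091226, of which 11.6% and 15.7% matched a hairpin. Levels are reads per 1000000 clean reads (RPM), and 3 reads, the limit that a count of 0 allows, are 0.159 and 0.142 RPM. Ratios are AICAR over DMSO with a 95% exact binomial interval, shares carry 95% Wilson intervals, and all of these cover counting error only, since amplified reads are not independent molecules. Fisher's exact test (two-sided) compares these libraries, not the conditions. A ratio per hairpin-matching read is lower than a ratio per clean read by 0.44 on the log2 scale for every arm. Tags shorter than 21 nt held 9.49% and 3.81% of the hairpin reads. Hairpins typical of ES cells (the miR-290 and miR-302 groups, 11 of 11 with reads) held 28.9% and 36.8% of hairpin reads. Nearly all of this was the miR-290 group, whereas the 4 miR-302 hairpins had 286 and 118 reads, a ratio of 0.369 (0.295 to 0.459). A list of 5 fibroblast hairpins held 0.181% and 0.132% with Mir214 at 0 reads, 3 blood cell hairpins held 0.0143% and 0.01005% with Mir223 at 0 reads, and 3 neuronal hairpins held 0.223% and 0.261%. The liver hairpin Mir122 had 55 and 536 reads. The part of these differences in the results was not tested.

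The cluster as a whole was read more in the AICAR library. Its 103 distinct tags had 25693 and 42131 reads (1362 and 1998 RPM), a ratio of 1.47 (1.44 to 1.49). Per hairpin-matching read the ratio was 1.08 (1.06 to 1.10), and the cluster made up 1.18% and 1.27% of hairpin reads. Both ratios compare shares of reads, so they also depend on the other RNA in each library. More cells with the cluster and more of it per cell cannot be told apart. None of the 103 tags matched another hairpin or another annotated transcript, so no read is shared with a related miRNA. Nearly all reads, 99.9%, were on the 69 tags that the libraries share.

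miR-182-5p was the leading product. It had 18929 and 30487 reads (1003 and 1445 RPM, ranks 24 and 22 of all arms), a ratio of 1.44 (1.42 to 1.47). miR-183-5p had 3433 and 6696 reads (181.9 and 317 RPM), and its ratio of 1.75 (1.67 to 1.82) was the highest of the 6 arms; it moved from rank 76 to rank 60 (exact p = 1.5e-162, adjusted over the 508 arms tested 1.6e-161). miR-96-5p had 2332 and 3581 reads (124 and 170 RPM), a ratio of 1.37 (1.30 to 1.45; exact p = 2.0e-33, adjusted p = 1.1e-32). All 3 main arms were therefore higher in the AICAR library, by less than 2-fold. Per hairpin-matching read miR-183-5p stayed higher, at 1.28 (1.23 to 1.34), miR-182-5p was at 1.06 (1.04 to 1.08), and miR-96-5p was at 1.01 (0.959 to 1.06), an interval that includes 1.

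The 3p arms, which are usually discarded, did not move together. miR-183-3p had 765 and 1202 reads (40.5 and 57.0 RPM), a ratio of 1.41 (1.28 to 1.54; exact p = 1.1e-13, adjusted p = 4.0e-13), and per hairpin-matching read of 1.03 (0.943 to 1.13). miR-96-3p had 33 and 44 reads (1.75 and 2.09 RPM), a ratio of 1.19 (0.742 to 1.93; exact p = 0.494), which turned to 0.877 per hairpin-matching read, so that a difference was not detectable at this depth. miR-182-3p had 124 and 49 reads (6.57 and 2.32 RPM) and was the 1 arm of the cluster that was lower in the AICAR library, at a ratio of 0.354 (0.249 to 0.496; exact p = 1.1e-10, adjusted p = 3.5e-10). Its ratio per hairpin-matching read was 0.260 (0.183 to 0.365).

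**Figure D1:**
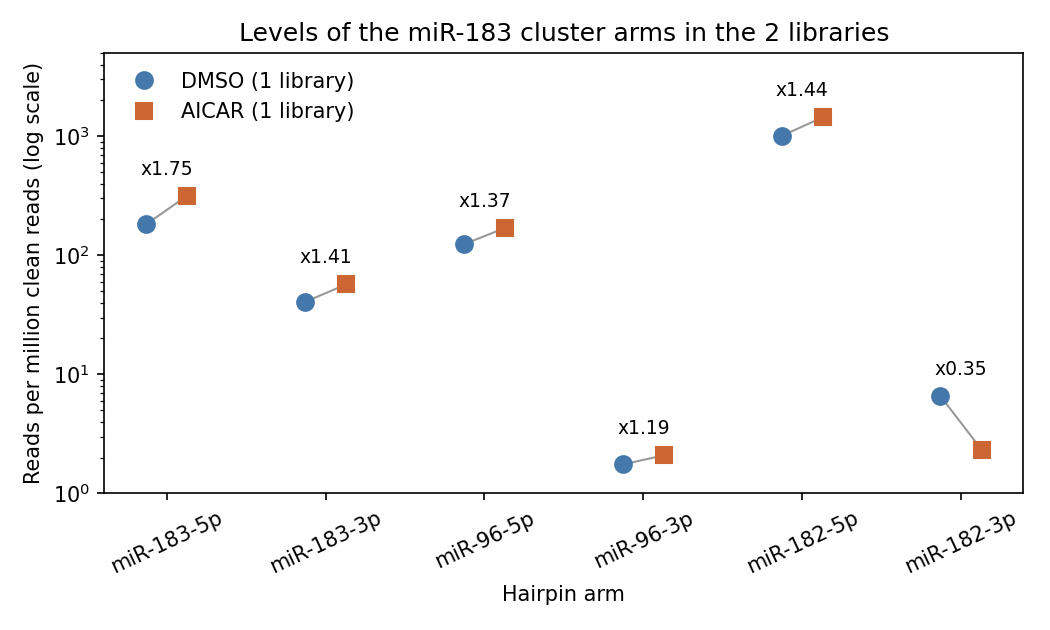
Reads per 1000000 clean reads (log scale) of the 6 arms of the cluster in the DMSO (circles) and AICAR (squares) libraries, with the ratio above each pair. Each point is 1 library, without error bars; 5 arms are higher in the AICAR library, and miR-182-3p falls from 6.57 to 2.32 RPM.

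Read against the 508 arms that reached 1 RPM in either library, the 2-fold threshold of the study's methods called 0 of the 6 cluster arms higher and 1, miR-182-3p, lower. Over all arms, 12.0% were at least 2-fold higher and 10% (51 of 508) at least 2-fold lower. This balance depends on the scaling, since per hairpin-matching read 24 arms (4.72%) were at least 2-fold higher and 112 (22.05%) at least 2-fold lower, with miR-182-3p still past the threshold. The median ratio of the 6 cluster arms was 1.39, beside 1.10 over all arms, of which 289 were higher in the AICAR library. Of the 508 arms, 2.95% had a lower ratio than miR-182-3p.

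**Figure D2:**
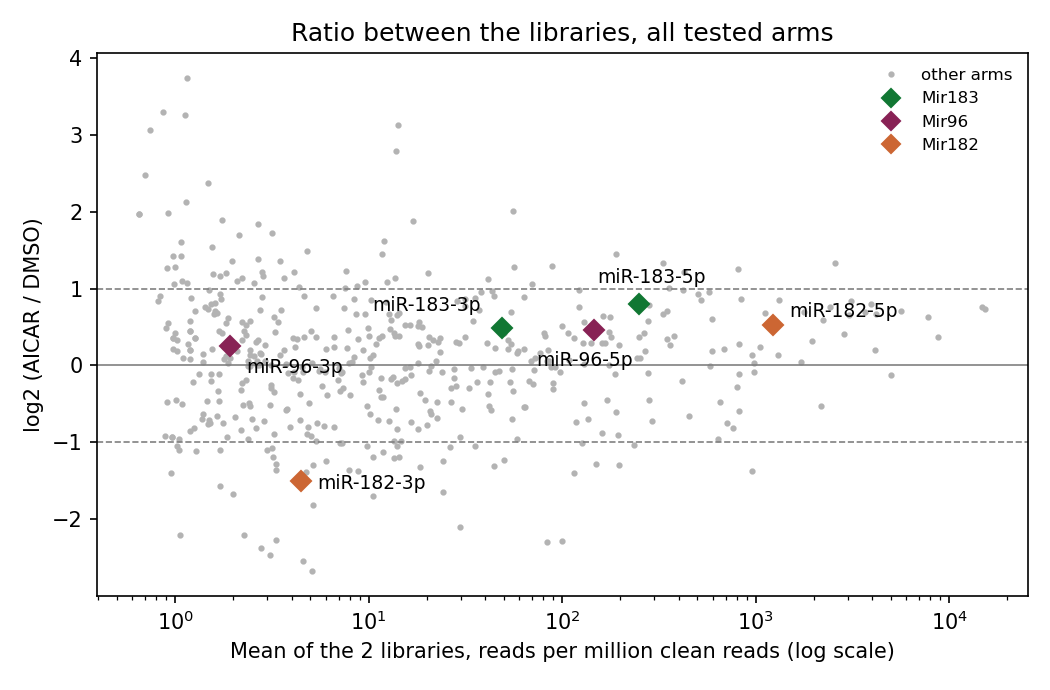
Log2 of the ratio between the libraries against the mean level in RPM (log scale) for the 508 arms tested (grey), with the cluster arms as diamonds and dashed lines at a 2-fold change. The diamonds lie between 0 and 1 except miR-182-3p, at -1.50.

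Within the cluster, where the library total does not enter, Mir183 gained a larger share. Mir182 held 74.4% (73.9 to 75.0) and 72.6% (72.2 to 73.1) of the cluster's reads (odds ratio 0.911, exact p = 2.5e-07). Mir183 held 16.3% (15.9 to 16.8) and 18.7% (18.4 to 19.1) of them (odds ratio 1.18, exact p = 1.5e-15), and Mir96 held 9.22% (8.88 to 9.58) and 8.62% (8.36 to 8.89) (odds ratio 0.928, exact p = 0.00746). Efficiencies of adaptor ligation and amplification differ between miRNAs and were not measured here, so these are shares of reads and not of molecules. Counting only tags identical to the most-read tag of each arm turned the directions for Mir182 and Mir183, to odds ratios of 1.07 and 0.959.

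Expressed as member ratios, 4.56 reads of Mir182 stood against 1 of Mir183 under DMSO and 3.87 under AICAR, a change of 0.850 (0.816 to 0.887; exact p adjusted over the 6 ratios compared 5.2e-14). Mir183 stood to Mir96 at 1.77 and 2.17 (1.23, 1.15 to 1.31; adjusted exact p = 5.3e-10). For Mir182 to Mir96 the ratios were 8.07 and 8.43, and their change of 1.04 (0.988 to 1.10; exact p = 0.126) did not pass. With 5p arms alone the same ratios were 5.51 and 4.55, 1.47 and 1.87, and 8.12 and 8.51. These changes depended on the end variants. With the most-read tag of each 5p arm alone, Mir182 to Mir183 changed by 1.04 (0.973 to 1.12; exact p = 0.228), Mir183 to Mir96 by 1.06 (0.965 to 1.16; exact p = 0.230) and Mir182 to Mir96 by 1.10 (1.03 to 1.18; exact p = 0.00635).

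The share of reads on the less-read arm, which is the 3p arm in all 3 hairpins, is a readout of arm use that is also free of the library total. For Mir182 it was 0.651% (0.546 to 0.775), from 124 of 19053 reads, and 0.160% (0.121 to 0.212), from 49 of 30536 reads (odds ratio 0.245, exact p = 1.2e-18, adjusted over 186 hairpins 1.5e-17). For Mir183 it was 18.2% (17.1 to 19.4) and 15.2% (14.4 to 16.0) (odds ratio 0.806, exact p = 2.4e-05, adjusted p = 9.1e-05), and with only the most-read tag of each arm the odds ratio was 0.899 and no longer passed (exact p = 0.153). Mir96 had 1.40% (0.995 to 1.95) and 1.21% (0.905 to 1.63), which did not differ detectably (odds ratio 0.868, exact p = 0.559). Among the 186 hairpins with at least 20 reads on the less-read arm, 19.9% had odds at least 2-fold lower in the AICAR library and 9.68% at least 2-fold higher. Mir182 was the 1 member past this threshold, 7 of the 186 hairpins had a lower odds ratio, and the median over all of them was 0.876.

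**Figure D3:**
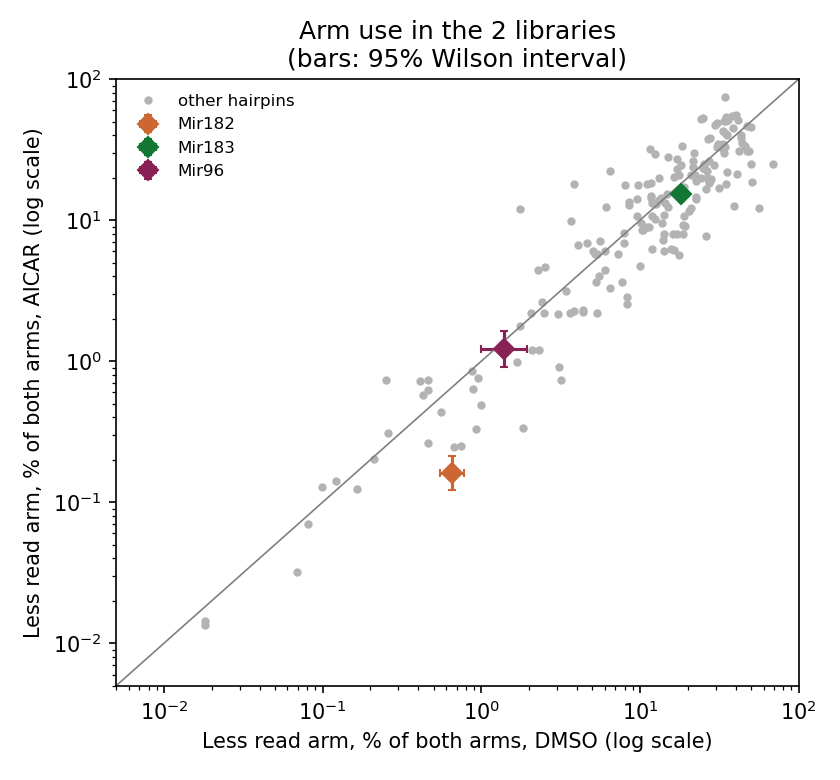
Share of reads on the less-read arm in the AICAR library against the DMSO library (both in %, log scales) for 186 hairpins (grey), with the members as diamonds, 95% Wilson intervals as bars and the line of equal shares. Mir182 lies below the line at 0.651% and 0.160%, whereas the intervals of Mir96 overlap the line.

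The lower miR-182-3p count lay mainly on its 2 most-read tags, and a tag of the Mir182 loop was lower as well. The most-read miR-182-3p tag and the tag of the hairpin loop are shown because they lie end to end in the hairpin, with the seed of the 3p arm in capitals:
miR-182-3p tag: gTGGTTCTagacttgccaacta
Mir182 loop tag: gtaaggtaatgggacccg
The 3p tag had 72 and 24 reads (ratio 0.298, 0.180 to 0.479), and the form that is 1 nt shorter and identical to the RefSeq sequence had 31 and 7 reads (0.202, 0.0751 to 0.468). The loop tag runs from position 32 to position 49 of the hairpin, exactly between the most-read 5p tag, which ends at 31, and the most-read 3p tag, which starts at 50. It had 31 reads under DMSO and 1 under AICAR, a ratio of 0.0289 (0.000708 to 0.173; exact p = 2.7e-09). This tag of 18 nt belongs to the tags shorter than 21 nt, whose share of hairpin reads was also lower in the AICAR library (9.49% and 3.81%). Mir183 had 0 reads on its loop in either library, and Mir96 had 0 and 1.

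**Figure D4:**
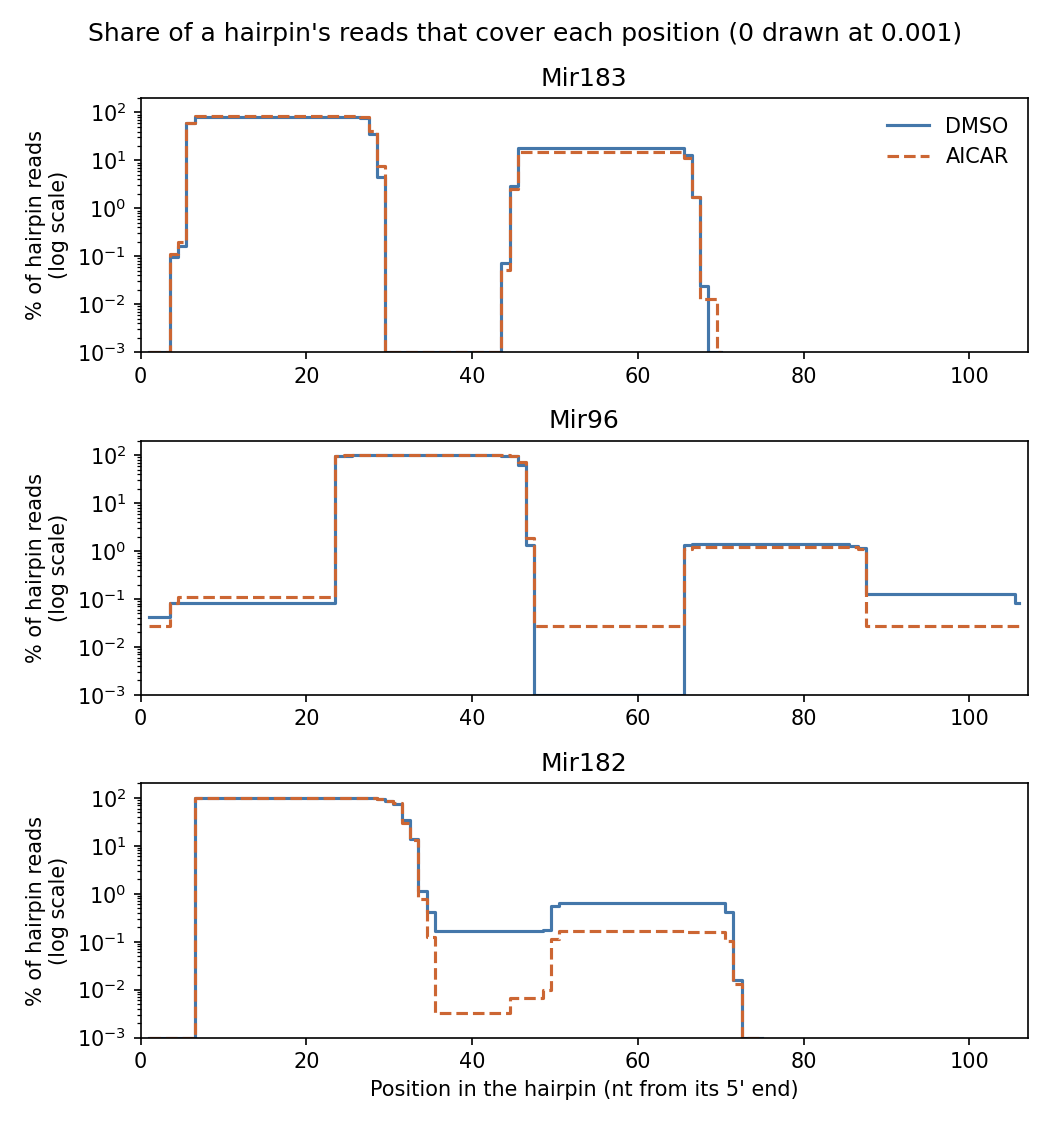
Percentage of each hairpin's reads that cover each position (log scale, positions counted from the hairpin's 5′ end; 0 is drawn at 0.001) in the DMSO (solid) and AICAR (dashed) library. The libraries overlie on the 5p arms, and the AICAR line runs below the DMSO line over the loop and the 3p arm of Mir182.

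miR-183-5p is the main arm of the cluster with 2 frequent 5′ ends, and hence 2 frequent seeds. The tags below are deposited reads, with bases 2 to 8 in capitals:
miR-183-5p, most-read tag: tATGGCACtggtagaattcact
miR-183-5p, shifted, 22 nt: aTGGCACTggtagaattcactg
miR-183-5p, shifted, 23 nt: aTGGCACTggtagaattcactgt
Reads with a 5′ end other than that of the most-read tag made up 25.8% (24.3 to 27.3) and 29.7% (28.7 to 30.9) of miR-183-5p (odds ratio 1.22, exact p = 2.8e-05, adjusted over 293 arms 0.000263). Nearly all of them start 1 nt later, with 877 and 1970 reads (ratio 2.01, 1.86 to 2.18), beside 2548 and 4704 reads at the unshifted end (1.65, 1.57 to 1.73). A higher shifted share passed at an adjusted p of 0.01 in 4.78% of the 293 arms with at least 100 reads in each library. The median arm had a shifted share of 1.94% and 1.60%, and miR-183-5p ranked 39 of 293. Bases 2 to 7 of the shifted form, UGGCAC, were found in no other arm.

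The 3′ ends of the shifted form also reached further. Of the unshifted miR-183-5p reads, 33.0% and 36.3% ended past the most-read tag, and of the reads that start 1 nt later, 73.0% and 80.0% did. Among single tags, the shifted form of 23 nt had 99 and 391 reads (ratio 3.53, 2.83 to 4.45), the shifted form of 22 nt had 541 and 1185 (1.96, 1.77 to 2.17), and the most-read tag had 1491 and 2649 (1.59, 1.49 to 1.69). The rise of miR-183-5p thus differed between its end forms by more than counting error. The last base of the shifted form of 23 nt is the next hairpin base after the form of 22 nt. A U added to the form of 22 nt would give the same tag and cannot be told apart.

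The other main arms had nearly uniform 5′ ends. miR-182-5p had a shifted share of 0.280% and 0.262%, and miR-96-5p of 0.343% and 0.419%, so that nearly all of their reads carried the same seed in both libraries. miR-183-3p had 15.9% and 17.1% (exact p = 0.535). Its most-read tag, with 383 and 612 reads, starts 1 nt after the RefSeq sequence, which itself had 80 and 134 reads, so the deposited reads of this arm mostly carry another seed than the RefSeq entry:
miR-183-3p, RefSeq: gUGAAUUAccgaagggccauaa
miR-183-3p, most-read tag: tGAATTACcgaagggccataa
For miR-182-3p the shifted share was 14.5% (9.38 to 21.8) and 32.7% (21.2 to 46.6), from 18 of 124 and 16 of 49 reads (odds ratio 2.86, exact p = 0.0103, not adjusted because the AICAR library holds fewer than 100 reads of the arm). With every tag on the 3p side of the hairpin counted the odds ratio was 1.16 (exact p = 0.732). That side also holds the loop tag (31 and 1 reads), whose start counts as a shifted 5′ end. The odds ratio of 1.16 therefore mixes loop reads with reads of the arm.

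At the 3′ end each main arm had a pattern of its own. miR-182-5p was the longest of the 293 arms by mean length, 25.1 nt in both libraries, and its ends were spread over several positions. Its tag of 25 nt had 7778 and 14421 reads (ratio 1.66, 1.61 to 1.71), whereas the tag with 1 more templated base had 4016 and 5054 (1.13, 1.08 to 1.17) and the tag with 2 more had 2482 and 3842 (1.38, 1.32 to 1.46). Reads that end past the 3′ end of the most-read tag made up 35.4% (34.8 to 36.1) and 30.1% (29.6 to 30.6) of miR-182-5p (odds ratio 0.783, exact p = 2.0e-35, adjusted over 293 arms 4.0e-34). More arms moved the other way. The median arm had 3.36% and 3.67% of its reads ending past its most-read tag, 175 arms were higher and 93 lower, 4.78% passed as lower at an adjusted p of 0.01, and 7 of 293 had a more negative difference.

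In miR-183-5p the reads that end past the most-read tag went up, from 43.2% (41.5 to 44.8) to 49.1% (48.0 to 50.3; odds ratio 1.27, exact p = 1.2e-08, adjusted p = 9.0e-08), a direction in which 19.1% of the arms passed. Its tags shorter than 21 nt fell from 3.76% to 2.39% (exact p = 0.000146, adjusted p = 0.000459), as did those of 41.3% of the arms. miR-96-5p ends mainly at 23 and 22 nt. The tag of 23 nt had 1471 and 2472 reads (ratio 1.504, 1.41 to 1.60) and that of 22 nt had 756 and 942 (1.11, 1.01 to 1.23). The share of its reads that end before the most-read tag was 35.3% (33.4 to 37.3) and 28.7% (27.3 to 30.2; odds ratio 0.738, exact p = 1.1e-07, adjusted p = 3.9e-07). Shorter ends passed as lower in 42.3% of the 293 arms, and the median arm went from 22.8% to 16.6%, the same direction as miR-96-5p.

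**Figure D5:**
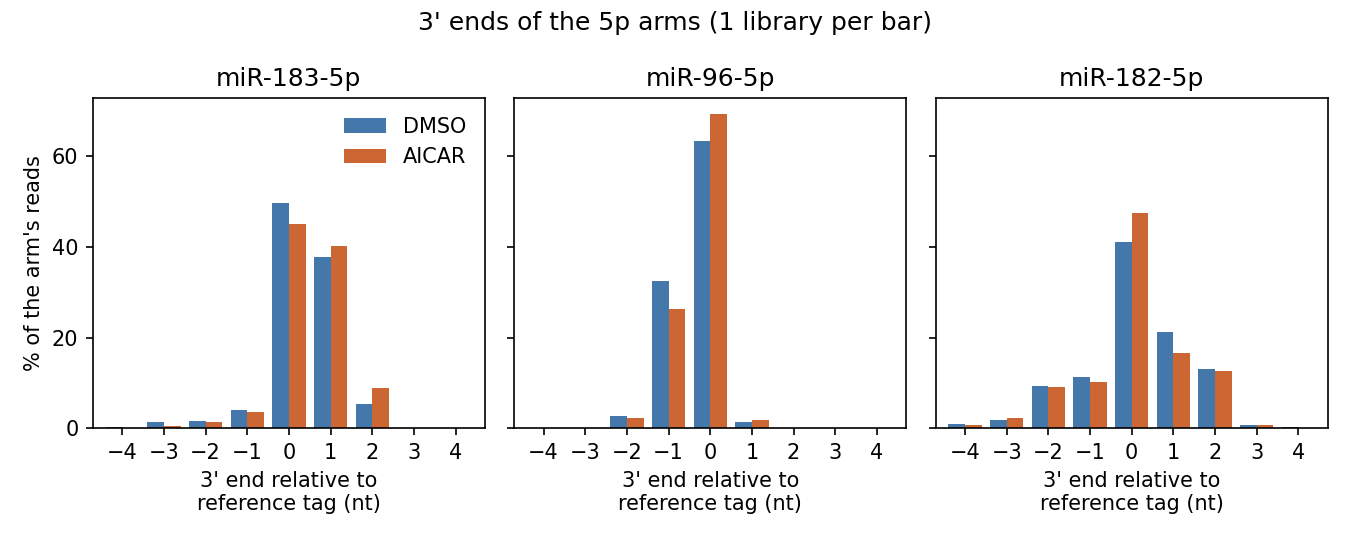
Percentage of the reads of each 5p arm by the position of the 3′ end relative to the most-read tag (nt), in the DMSO and AICAR libraries (1 library per bar, no error bars). At 1 nt past the most-read tag the AICAR bar is higher for miR-183-5p and lower for miR-182-5p, and at 1 nt before it the AICAR bar is lower for miR-96-5p.

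Mature miRNAs can gain bases at the 3′ end that are not in the hairpin, most often A or U added by terminal nucleotidyl transferases. Such tailed reads are not in the counts above. An added base equal to the next hairpin base cannot be told from a templated end and is not counted as a tail. That base is U after the unshifted miR-183-5p tag of 23 nt and the miR-182-5p tag of 26 nt, so U tails there are missed. The same holds for the miR-96-5p tags of 22 and 23 nt and the miR-182-3p tag of 22 nt. A tails are missed where the next base is A. This is so for the miR-182-5p tag of 27 nt and the miR-182-3p tag of 21 nt. It is also so for the miR-183-3p tags of 20 and 21 nt. Of tailed and matching miR-182-5p reads together, the tailed reads made up 15.9% (15.4 to 16.4), 3572 of 22501, and 12.3% (11.99 to 12.7), 4290 of 34777 (odds ratio 0.746, exact p = 7.7e-33, adjusted over 293 arms 1.3e-31). A lower tailed share passed in 2.39% of the arms, the median arm went from 7.44% to 10.1%, and 228 arms were higher and 65 lower. Tails of A accounted for most of it, at 9.19% and 6.79%, whereas tails of U were at 4.45% and 4.22% (exact p = 0.185). The main tailed tags are shown with the added bases in capitals:
miR-182-5p, 25 nt with A: tttggcaatggtagaactcacaccgA
miR-182-5p, 25 nt with U: tttggcaatggtagaactcacaccgT
miR-183-5p, 23 nt with A: tatggcactggtagaattcactgA
The A-tailed miR-182-5p tag had 1054 and 1282 reads (ratio 1.09, 1.00 to 1.18), and the U-tailed tag, written with T as in the deposited reads, had 399 and 833 (1.87, 1.66 to 2.11). The tailed share of miR-183-5p was 19.8% in both libraries, nearly all of it A (18.6% in both), and its leading tag had 348 and 660 reads (1.70, 1.49 to 1.94). miR-183-3p had 14.6% tailed reads in both libraries, and most of the tails that can be seen were U, at 11.2% and 10.4%. Its balance of A and U tails cannot be read from these shares, because an A added to its tags of 20 and 21 nt is not counted. miR-96-5p had 0.977% and 1.49% (exact p = 0.100, adjusted p = 0.182) and ranked 280 of 293 arms. U tails after its tags of 22 and 23 nt are missed, so neither its share nor its rank covers them. For miR-182-3p 0 tailed reads were counted beside 124 and 49 matching ones, with upper Wilson bounds of 3.005% and 7.27%. These bounds do not cover its missed A and U tails.

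In the genome the members are neighbours, and their main arms had similar ratios. The log2 ratio ran from 0.46 for miR-96-5p to 0.80 for miR-183-5p, a range of 0.35. Among 17 chains of hairpins with gaps of at most 10 kb and at least 3 well-read hairpins (100 reads or more), this range ranked 3 from the smallest, and the others ran from 0.32 to 2.66. A range tends to widen with the number of hairpins, which was 3 to 33, and among the 8 chains with 3 well-read hairpins the cluster also ranked 3. The arms closest to each main arm in log2 RPM over the 2 libraries were miR-26b-5p (207.9 and 357 RPM) and miR-30a-5p (223.5 and 335 RPM) for miR-183-5p, miR-106b-5p and miR-23b-3p for miR-96-5p, and let-7g-5p and let-7e-5p for miR-182-5p, at distances of 0.136 to 0.307. The ratios of these arms, in the same order, were 1.72, 1.499, 1.22, 1.56, 1.60 and 1.80, beside 1.75, 1.37 and 1.44 for the 3 members. These arms were chosen by their levels in both libraries, so ratios near that of the member follow from the choice.

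ZEB1, a transcription factor of the epithelial to mesenchymal transition, is known to repress the miR-200 family, miR-203 and miR-183. Of the 7 tested arms of Mir200a, Mir200b, Mir200c, Mir141, Mir429 and Mir203, 4 were higher in the AICAR library, as were 289 of all 508 arms, with a median ratio of 1.16 beside 1.39 for the cluster and 1.10 for all arms. At least 2-fold higher was 1 of the 7, beside 12.0% of all arms. That arm was miR-203-3p, with 32 and 83 reads (ratio 2.32, 1.53 to 3.61). The ratios of the most-read arms of the other hairpins were 1.16 for miR-200a-3p, 0.987 for miR-200b-3p, 1.23 for miR-200c-3p, 1.37 for miR-141-3p and 0.917 for miR-429-3p.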

How the data were processed

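Total RNA of 1 DMSO and 1 AICAR culture of J1 ES cells was sequenced as small RNA. The authors selected RNA of small size, ligated adaptors, amplified by PCR, sequenced on a HiSeq instrument, removed low-quality and contaminant reads, and deposited collapsed tags with their read counts, not normalized and not aligned. The study names SOAP for mapping tags to the genome, a step that the deposited tags precede and that was not used here. Tags of 18 to 44 nt are listed. The submitters' notes name build mm9, whereas the hairpins used here are from GENCODE vM21 on GRCm38; matching was by sequence. The labels name a TruSeq RNA kit, and size selection is from the study's methods.

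Tags were matched without mismatch to 1174 hairpins. On each arm the most-read tag was the reference, and tags with a start up to 2 nt and an end up to 4 nt away were counted for the arm. Hairpin and cluster totals hold every matching tag. All arms that reached 1 RPM in either library were tested with Fisher's exact test and Benjamini-Hochberg adjustment over all of them. End and tail shares were tested over the arms with at least 100 reads in each library. A tail was 1 to 3 bases not in the hairpin after at least 18 matching nt. The thresholds of 2 and 0.5 follow the study's methods. With 1 library per group no count model could be fitted. All 3 hairpins and both arms of each were named, with the 2 nearest arms in level of each main arm, arms with a shared seed and the ZEB1 list. The members and lists were chosen with earlier results of these data known. A RefSeq mature entry was found for all 6 arms, and the most-read tag was identical to it for 4 of them. On simulated data the steps were tested before use. TMM factors came from edgeR 4.0.16 in R 4.3.3. All else ran in Python 3.11.15, with scipy 1.17.1 for tests, numpy 2.4.6 for arrays and matplotlib 3.10.9 for plots.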

Additional observations from a re-analysis of the deposited data

How the results depend on the processing

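Of 114 alternative folds, shares and member ratios, 97 kept their direction and their side of the threshold, and of 30 alternative counts of arms 22 stayed within 1.5 times the count reported. The cluster ratio of 1.47 ranged from 1.08 per hairpin-matching read to 1.61 with tags identical to the reference tag, by way of 1.31 with TMM scaling, and was above 1 in every alternative run; miR-182-3p ranged from 0.260 to 0.354 and the odds ratio of the less-read Mir182 arm from 0.180 to 0.252. Per hairpin-matching read, 24 arms were 2-fold higher and 112 lower, and the miR-96-3p ratio turned to 0.877. With tags of at least 21 nt 33 arms were lower. At 10 RPM, which leaves miR-182-3p out, 0 cluster arms, 23 higher and 25 lower arms passed, and with no filter 275 and 226. With identical tags only, which drops the end variants, the share odds ratios were 1.07 for Mir182 (exact p = 0.00532), 0.959 for Mir183 and 0.921 for Mir96, and 0.899 for the less-read Mir183 arm (exact p = 0.153), and the 5p read ratios changed by 1.04 (Mir182 to Mir183), 1.10 (Mir182 to Mir96) and 1.06 (Mir183 to Mir96); with the reference 5′ end only the share odds ratios were 0.956 for Mir182 and 0.939 for Mir96, and with 1 mismatch allowed 0.957 for Mir96. With every tag on the arm's side of the hairpin, odds ratios turned for the shifted share of miR-96-3p (0.930) and for the short-tag share of miR-182-5p (0.978) and miR-182-3p (0.621), and that of the shifted share of miR-182-3p went from 2.86 to 1.16. In Mir182 this setting adds the loop tag of 18 nt (31 and 1 reads) to the 3p side. To its 5p side it adds short tags, mainly 1 of 20 nt (36 and 51 reads). Tailed shares turned to 1.02 for miR-183-5p and 0.878 for miR-183-3p with 1 added base, and to 0.974 for miR-183-3p with a match of at least 20 nt. The cause was not tested for the other changes. The alternative limited to tags within the end limits of the arms and that of the read ratios were added after seeing the data. Restriction to tags with no other match in the genome was not run. No paired analysis was possible because each group is 1 library; for the same reason none was left out. Depth limits miR-96-3p (33 and 44 reads) and miR-182-3p most.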

Other observations

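Reads that match an arm except for 1 internal base were looked at outside the counts above, with positions counted from 1 at the 5′ end of the arm and the base of the hairpin written first. In miR-182-5p the change C17T had 156 (DMSO) and 211 (AICAR) reads, 0.820% and 0.689% of the reads with either base. The next most frequent change in this arm, C19T, had 8 and 17 reads (0.0424% and 0.0559%). In miR-183-5p the change with the most reads, C19T, had 2 and 5. The strand opposite the cluster gave 1 tag, with 0 and 1 reads.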
